A study of Mus musculus with 62 samples.

Results

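The progenitor libraries of clones 1 to 13 were ranked by their level of Mcpt8, a granule protease of mouse basophils. Levels are in CPM, the count of a gene divided by the library total and scaled to 1000000. The members were chosen by this measured value: the top 7 libraries form the Mcpt8-high group (clones 7, 9, 5, 2, 12, 1 and 6, in that order) and the other 6 the reference (clones 10, 3, 8, 13, 11 and 4), out of 62 libraries in the series. The ranking gene runs from 1717 CPM in clone 7 to 262 CPM in clone 4: the last library inside the group has 702 CPM and the first outside it has 573. Because Mcpt8 chose the groups, it is given here only as that description and is left out of every result.

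All 13 are clonal lines of mouse bone marrow cells that carry ER-Hoxb8, a Hoxb8 protein joined to an estrogen receptor domain, which holds myeloid progenitors in a dividing state while it is active. The labels call these libraries Plus and name their source as GMP cells, that is, granulocyte-monocyte progenitors. The Minus libraries of the same clones are labelled monocytic. The growth text names RPMI medium with 10% FBS, antibiotics and SCF (stem cell factor, the ligand of the receptor Kit). No strain, age or sex is given in the sources used here, and no other treatment separates the 13. Each clone gave 1 library per state, so that n counts clones. A p-value sets the group difference against the variation between these libraries. In that variation, differences between clonal lines cannot be told apart from those of culture or library preparation. The mRNA was read in bulk, so that more cells of a type and more RNA per cell cannot be told apart.

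Basophils and mast cells are the granulated cells that carry the high-affinity receptor for IgE. Basophils arise in the bone marrow from progenitors close to those of neutrophils and monocytes, circulate briefly, and store histamine and serine proteases. Mast cells mature in tissues, depend on Kit, and store chymases and tryptases. GATA2 is needed in both lineages. CEBPA and IRF8 act in the fate of granulocytes, to which basophils belong, and of monocytes.

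Library totals ran from 12.6 to 47.3 M counts (median 14.7 M) in the Mcpt8-high group and from 13.2 to 38.8 M (median 17.4 M) in the reference, and the difference of the mean totals was within the spread (exact permutation test, two-sided, p = 0.939 over 1716 splits). Neutrophil granule genes divided the 13 libraries another way. S100a9 was at 102 to 346 CPM in clones 1 to 5 and at 2.11 to 5.31 CPM in clones 6 to 13, and S100a8, Ngp, Camp and Ltf were likewise higher in all 5 of the former than in any of the 8 latter. The labels name no batch. Clones 1 to 5 hold 3 Mcpt8-high and 2 reference libraries, and clones 6 to 13 hold 4 of each, so the comparison was also made within both sets.

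In the Mcpt8-high progenitors, 23 of 11524 genes tested were higher and 0 were lower than in the reference, which is 0.200% of all genes. A gene was called where its p from edgeR's quasi-likelihood test, after Benjamini-Hochberg adjustment over all genes, was under 0.05. They include granule proteases of both basophils (Prss34) and mast cells (Cma1, Tpsb2, Tpsg1), the IgE receptor chain Ms4a2, the IL-33 receptor Il1rl1 and the leukotriene enzyme Alox5. Log2 fold changes ran from 0.70 for Anxa1 to 3.63 for Ets1, and by p Tpsg1 and the sugar transporter gene Slc35d1 came first. At an unadjusted p under 0.05, 447 genes were higher (3.88%) and 198 lower (1.72%), or 5.60% in either direction, and DESeq2 called 99 higher and 3 lower, with all 23 among the former. In 21 of the 23 every Mcpt8-high library was above every reference library, against 42 genes in all (0.364%), while 8 (0.0694%) were below in every library. Since Mcpt8 levels in these same libraries set the groups, these tests describe which genes went with that ranking. Where the groups of a gene do not overlap, leaving out libraries cannot turn the sign of its difference.

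**Figure D1:**
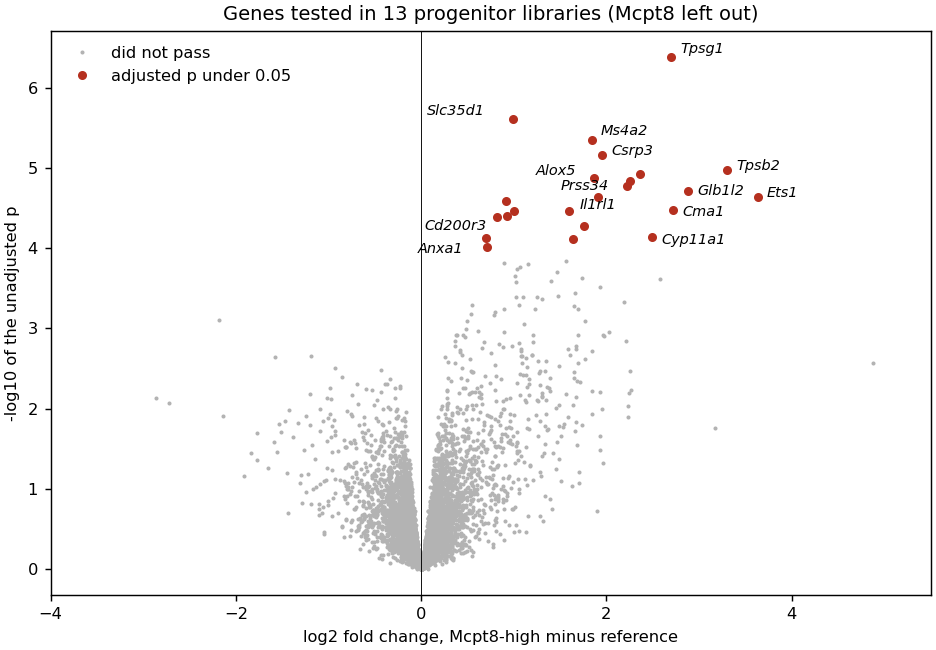
Each point is 1 of 11524 genes, with the log2 fold change (Mcpt8-high minus reference) on the x axis and the -log10 of the unadjusted p on the y axis. The 23 genes with an adjusted p under 0.05 are filled red and lie on the right side, and Tpsg1 has the smallest p.

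The count of 23 depended on single clones. It was 1 without clone 3, 4 without clone 2, 7 without clone 10, 10 without clone 11, 12 without clone 5, 14 without clone 4 and 44 without clone 8, and 1 (Tpsg1) without the libraries next to the threshold, clones 6 and 10. Within clones 1 to 5 the median log2 fold change of the 23 was 2.25, and within clones 6 to 13 that of 22 tested was 1.58, against 1.86 over all 13. These are the libraries on which the genes were called, so the medians are a description. By edgeR 0 genes were called in either set (adjusted p), and with the set as a term in the fit 18 of the 23 were called.

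Serine proteases of the granule were among the genes with the largest differences. A value followed by its SE is a log2 fold change, Mcpt8-high minus reference. The SE was derived from the edgeR test, as the size of the fold change or slope over the square root of its F statistic. Prss34 (ENSMUSG00000056399), a tryptase-like protease of basophils, was at 459.5, 563 and 776 CPM (lowest, median, highest) in the Mcpt8-high group and 32.3, 129 and 190.2 CPM in the reference. Every Mcpt8-high library was above every reference library, with clone 13 lowest of all. The means were 576 ± 113 and 123 ± 68.7 CPM (SD, n = 7 and 6), a log2 fold change of 2.25 (SE 0.35) with an edgeR adjusted p of 0.0207.

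Cma1 (ENSMUSG00000022225), the mast cell chymase, was at 232, 316 and 722 CPM (lowest, median, highest) in the Mcpt8-high group and 23.2, 41 and 144 CPM in the reference. Again the groups did not overlap, and clones 8 and 3 were the highest of the reference. Its log2 fold change was 2.72 (SE 0.46), with an edgeR adjusted p of 0.0249. Tpsg1 (ENSMUSG00000033200), a membrane-anchored tryptase, was at 7.06 to 17.8 CPM (median 12.7) against 0.755 to 2.77 CPM (median 2.15), and its log2 fold change of 2.70 (SE 0.31) had the smallest adjusted p of all genes, 0.00474 (edgeR). Tpsb2 (ENSMUSG00000033825), a secreted mast cell tryptase, was at 4.61 to 18.5 CPM (median 8.32) against 0.0686 to 1.63 CPM (median 1.27). That is a log2 fold change of 3.30 (SE 0.50) at a low level, with an edgeR adjusted p of 0.0207. Reference clones 13 and 11 were at 0.227 and 0.0686 CPM. Tpsb2 passed the filter on low counts through the Mcpt8-high group, so its difference is given as a description. How reads shared between near-identical tryptase or chymase genes were counted is not given in the sources used here, so values of these paralogs are uncertain to that extent.

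Cpa3, the carboxypeptidase that both lineages pack with their proteases, is abundant throughout. It was at 4685 to 9780.0 CPM (median 6928) against 1877 to 6779 CPM (median 4785), and its log2 fold change of 0.61 (SE 0.23) did not pass (edgeR adjusted p = 0.672). Clone 13 alone set the low end of the reference. Gzmb, a cytotoxic granule protease that basophils also hold, had 1.33 (SE 0.49) and did not pass either. The azurophil protease Ctsg, which lies in the chymase gene cluster, was at 4457 ± 589.5 CPM against 4529 ± 765 CPM (SD, n = 7 and 6), with overlapping groups.

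In the RefSeq gene order Prss34, Prss28, Prss29, Tpsb2 and Tpsg1 are consecutive, and 3 of them were called. Prss28 and Prss29, known as implantation serine proteases of the uterus, were under the filter on low counts, at a mean of 0.797 and 0.0883 CPM in the Mcpt8-high group. Of the tested genes on either side, Baiap3 before Prss34 and Lmf1 after the tryptases had log2 fold changes of -0.13 and 0.11 and did not pass. Around Cma1 the other chymase genes Cma2, Mcpt2 and Mcpt4 had means under 1 CPM in both groups, and the gene before it, Sdr39u1, had a log2 fold change of 0.56 (SE 0.22) that did not pass. Mcpt8 itself belongs to that cluster and is not counted.

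**Figure D2:**
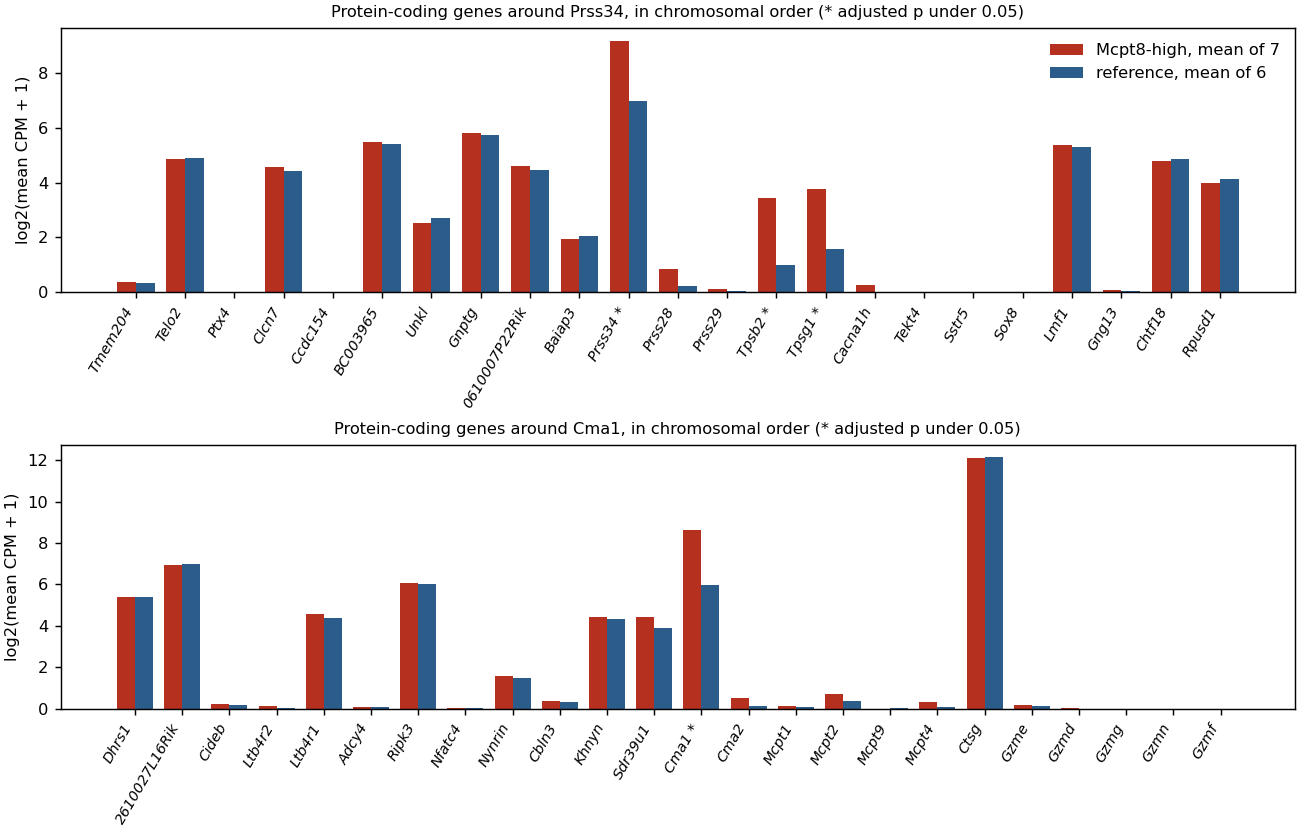
Bars give log2(mean CPM + 1) in the Mcpt8-high (mean of 7) and reference (mean of 6) progenitors for protein-coding genes in chromosomal order around Prss34 (top, with 1 neighbour not shown) and Cma1 (bottom), and a star marks an adjusted p under 0.05. The stars sit on Prss34, Tpsb2 and Tpsg1 above and on Cma1 alone below, while Ctsg is equally high in both groups.

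The promoters of 5 genes at the centre of the comparison are shown. On either strand 4 of them hold AGATAA or TGATAA, forms of the core motif of the GATA factors, and 1 does not. The genes were chosen after the matches were seen. Each run is the 250 bases before the transcription start in RefSeq (build GRCm38.p6, not the mm9 build of the counts), written 5′ to 3′ along the gene, with every AGATAA or TGATAA, or its reverse complement TTATCT or TTATCA, in capitals.
Prss34, chr17:25298144-25298393, plus strand: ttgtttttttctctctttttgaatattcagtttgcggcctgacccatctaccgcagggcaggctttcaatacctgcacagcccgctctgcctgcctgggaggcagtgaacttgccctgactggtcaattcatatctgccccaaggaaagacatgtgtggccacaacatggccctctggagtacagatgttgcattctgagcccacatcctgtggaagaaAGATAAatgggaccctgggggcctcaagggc
Ms4a2, chr19:11623720-11623969, minus strand: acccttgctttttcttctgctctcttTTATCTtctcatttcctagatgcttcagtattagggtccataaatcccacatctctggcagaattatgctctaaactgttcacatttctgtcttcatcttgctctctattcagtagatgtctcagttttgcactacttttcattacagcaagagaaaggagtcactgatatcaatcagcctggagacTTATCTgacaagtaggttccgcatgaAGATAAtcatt
Cd200r3, chr16:44943428-44943677, plus strand: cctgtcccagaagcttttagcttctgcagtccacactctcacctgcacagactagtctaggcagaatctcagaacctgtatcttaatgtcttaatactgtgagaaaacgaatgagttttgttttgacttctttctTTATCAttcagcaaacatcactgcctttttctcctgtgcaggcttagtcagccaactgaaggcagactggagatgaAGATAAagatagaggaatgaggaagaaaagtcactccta
Il1rl1, chr1:40429320-40429569, plus strand: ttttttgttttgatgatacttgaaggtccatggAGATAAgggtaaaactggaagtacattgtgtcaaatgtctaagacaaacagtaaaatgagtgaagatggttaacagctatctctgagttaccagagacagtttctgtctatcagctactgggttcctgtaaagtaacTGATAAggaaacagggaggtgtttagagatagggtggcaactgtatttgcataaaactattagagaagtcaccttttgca
Cma1, chr14:55944676-55944925, minus strand: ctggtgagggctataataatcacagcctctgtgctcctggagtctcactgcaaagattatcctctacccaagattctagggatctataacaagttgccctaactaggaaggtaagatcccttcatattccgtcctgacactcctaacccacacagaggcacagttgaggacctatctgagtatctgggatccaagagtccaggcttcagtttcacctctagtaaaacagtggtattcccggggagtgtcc
Prss34 has 1 match, 31 bases before its start. Ms4a2 has 3, at 224, 37 and 11 bases, Cd200r3 has 2, at 115 and 39 bases, and Il1rl1 has 2, at 217 and 80 bases before the outermost of its starts. Cma1 has 0 of the forms searched in this window. Forms ending in G (AGATAG and TGATAG) were not searched, and CTATCT, the reverse complement of AGATAG, occurs unmarked in Cma1. Such forms also occur unmarked in Cd200r3 and Il1rl1. RefSeq windows were matched for 17 of the 23 genes, and the outermost start of 6 of the 17 holds a match, against 16.9% of the outermost windows of 27025 genes. A match is a description of letters, and binding was not measured.

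Of the 3 chains of the IgE receptor, 1 was called. Ms4a2, the beta chain that amplifies the signal, was at 148, 181 and 263 CPM (lowest, median, highest) in the Mcpt8-high group and 25.9, 56.6 and 84.9 CPM in the reference. All 7 were above all 6, and the means were 193 ± 47.7 and 54.7 ± 22.1 CPM (SD, n = 7 and 6). Its log2 fold change was 1.84 (SE 0.26), with an edgeR adjusted p of 0.0173. Fcer1a, the chain that binds IgE, was nearly silent and below the filter: it was at 0.106 to 1.35 CPM (median 0.4) against 0 to 0.0988 CPM (median 0). With the filter on low counts left off, edgeR called it higher with an adjusted p of 0.0449, at a level of few counts. Fcer1g, the gamma chain shared with other Fc receptors, was at 552 to 849 CPM (median 618) against 612 to 789 CPM (median 725), with a log2 fold change of -0.06 (SE 0.13) that did not pass.

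Of 19 listed genes of IgE receptor signalling, 17 were tested and 1 was called higher (against 0.200% of all genes), Ms4a2 itself. The median log2 fold change of the 17 was 0.02, against 0.00 over all genes tested. Lat, the adaptor that links the receptor to phospholipase C, had 0.91 (SE 0.34) and did not pass (edgeR adjusted p = 0.64).

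Surface receptors were also among the called genes. Il1rl1, also called ST2, the IL-33 receptor of basophils, mast cells and other type 2 cells, was at 91.7, 119 and 173 CPM (lowest, median, highest) in the Mcpt8-high group and 19.9, 38.2 and 84.5 CPM in the reference. Its lowest Mcpt8-high library, clone 9, lay just above the highest reference library, clone 8. The log2 fold change was 1.59 (SE 0.27), with an edgeR adjusted p of 0.0249. Its co-receptor Il1rap was at 46.4 to 67.6 CPM (median 63.2) against 18.3 to 63.5 CPM (median 28.2), and 0.89 (SE 0.23) did not pass by edgeR (adjusted p = 0.252), while DESeq2 called it (adjusted p = 0.0213).

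Cd200r3, an activating receptor of mouse basophils and mast cells, was at 18.4 to 37.1 CPM (median 22.8) against 9.59 to 16.3 CPM (median 12). Without overlap, the difference was small in size, a log2 fold change of 1.01 (SE 0.17) with an edgeR adjusted p of 0.0249. Adora3, the adenosine A3 receptor through which rodent mast cells degranulate, was low, at 2.04 to 7.05 CPM (median 3.21) against 0.206 to 1.14 CPM (median 0.74), with 2.36 (SE 0.36) on the log2 scale (edgeR adjusted p = 0.0207). Another entry of the table has the same symbol, and the value is that of ENSMUSG00000000562. Adora3 passed the filter on low counts through the Mcpt8-high group, so its fold change is given as a description. Pilrb2, an activating receptor of the PILR family, was at 8.96 to 20.4 CPM (median 11.3) against 1.69 to 6.72 CPM (median 3.39) and had 1.91 (SE 0.31).

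Among 16 tested of 17 listed cytokine receptors of basophils, 1 was called by edgeR (Il1rl1, against 0.200% of all genes) and 6 were higher at an unadjusted p under 0.05 (against 3.88%). The count was 0 without clone 2, 3, 4, 5, 7, 10 or 11, each left out alone, and 3 without clone 8 or by DESeq2, which added Csf2rb2 and Il1rap. Csf2rb2, the mouse-specific beta chain of the IL-3 receptor, was at 27.9 to 59.1 CPM (median 45.7) against 6.95 to 39.8 CPM (median 16.7), with 1.31 (SE 0.29). It did not pass by edgeR (adjusted p = 0.121) and did by DESeq2 (adjusted p = 0.00133). The common beta chain Csf2rb had 0.53 (SE 0.14) and the IL-3 receptor alpha chain Il3ra had 0.25 (SE 0.13), and neither passed. Kit, the stem cell factor receptor, was at 315 to 586 CPM (median 441) against 261 to 631 CPM (median 369). Its log2 fold change of 0.06 (SE 0.18) lies within its error, and its sign turned under some of the alternatives.

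**Figure D3:**
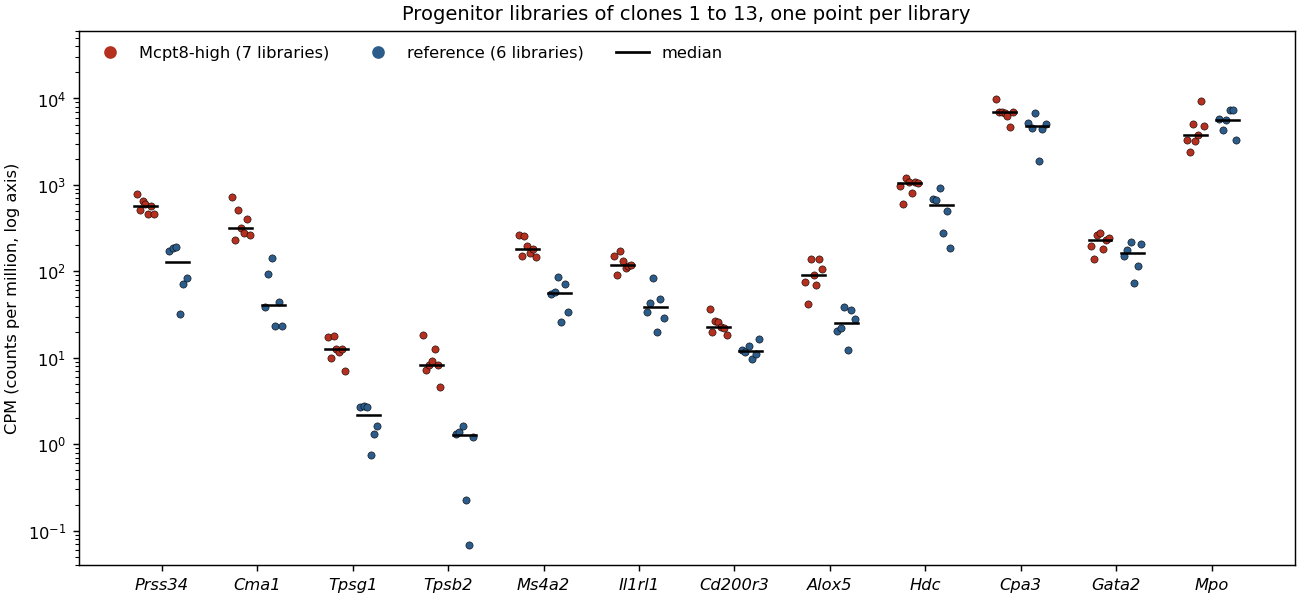
Points are the CPM of 1 progenitor library each on a log axis, for 7 Mcpt8-high and 6 reference clones, and bars are medians. From Prss34 to Alox5 the groups do not overlap, whereas those of Hdc, Cpa3, Gata2 and Mpo do.

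The mediator genes were split. Alox5, the 5-lipoxygenase that starts leukotriene synthesis, was at 42.3, 91.4 and 139.8 CPM (lowest, median, highest) in the Mcpt8-high group and 12.3, 25.1 and 38.9 CPM in the reference. Its groups did not overlap, and clones 5 and 1 were highest. The log2 fold change was 1.86 (SE 0.29), with an edgeR adjusted p of 0.0207. Hdc, the enzyme that makes histamine, was at 603 to 1187 CPM (median 1053) against 186 to 924 CPM (median 588), and its log2 fold change of 0.85 (SE 0.30) did not pass (edgeR adjusted p = 0.567). Slc18a2, the transporter that loads histamine into granules, had 0.89 (SE 0.22), which did not pass by edgeR (adjusted p = 0.217) and did by DESeq2 (adjusted p = 0.0126). Of 15 listed genes of histamine and eicosanoid synthesis 12 were tested, 1 was called by edgeR (against 0.200% of all genes) and 3 were higher at an unadjusted p under 0.05 (against 3.88%), with a median log2 fold change of 0.05. The count was 0 without clone 2, 3 or 10, each left out alone, and 2 by DESeq2.

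Cyp11a1, Sphk1 and Anxa1 were called as well. Cyp11a1, which cleaves the side chain of cholesterol in the first step of steroid synthesis, was at 6.24 to 35.8 CPM (median 9.54) against 1.38 to 4.97 CPM (median 2.12), with a log2 fold change of 2.49 (SE 0.45). Sphk1, a kinase that makes sphingosine-1-phosphate, was at 14 to 62.9 CPM (median 39.2) against 4.16 to 12 CPM (median 8.92), with 2.22 (SE 0.35). Anxa1, a lipid-binding protein of granulocytes, was at 493 to 863 CPM (median 625) against 349.5 to 451 CPM (median 399), with 0.70 (SE 0.13). Their edgeR adjusted p-values were 0.0406, 0.0216 and 0.0406, and none of these groups overlapped.

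Of 32 listed transcription factors of granulocyte and monocyte fate 31 were tested, and 0 passed by edgeR, 1 by DESeq2 (Gata1), with 3 higher at an unadjusted p under 0.05 in edgeR (against 3.88% of all genes). Those 3, chosen after their values were seen, are Gata1, Tal1 and Gata2. Gata1, which drives mast cell, megakaryocyte and erythroid genes, was at 14.2 to 49.3 CPM (median 25.7) against 7.94 to 17.1 CPM (median 9.61). Reference clone 8 lay above Mcpt8-high clones 12 and 9, and its log2 fold change of 1.46 (SE 0.29) had an adjusted p of 0.0779 by edgeR and 2.42e-04 by DESeq2. Without clone 8, 9 or 12, each left out alone, edgeR called it. Gata2 was at 141 to 278 CPM (median 227) against 74 to 218 CPM (median 164), with 0.49 (SE 0.21) (edgeR adjusted p = 0.789). Cebpa had 0.14 (SE 0.15). Irf8 had -0.64 (SE 0.53), with clone 13 of the reference and clone 1 of the Mcpt8-high group far above the rest at 129 and 90.8 CPM. Myb, the most expressed factor of the list, had -0.10 (SE 0.10).

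Ets1, a transcription factor of lymphoid cells, was called at a very low level, at 0.611 to 3.84 CPM (median 2.32) against 0 to 0.444 CPM (median 0.15). The reference clones 13 and 11 had no counts, and the gene passed the filter on low counts through the Mcpt8-high group, so its fold change of 3.63 (SE 0.59) is given as a description.

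Further called genes are known from other settings. Glb1l2, a galactosidase-like enzyme, was at 13.6 to 69 CPM (median 45.2) against 0.604 to 9.25 CPM (median 6.91) and had 2.88 (SE 0.46). Csrp3, a LIM protein known from muscle, was at 12 to 31.3 CPM (median 17.4) against 2.12 to 7.01 CPM (median 5.09) and had 1.96 (SE 0.28). Slc35d1, a nucleotide sugar transporter of the endoplasmic reticulum, was at 29 to 40.7 CPM (median 37.6) against 12.1 to 25.1 CPM (median 18.4) with 0.99 (SE 0.13), with the second smallest adjusted p, 0.0141 (edgeR).

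Itm2c, a membrane protein that binds amyloid precursor protein, had 0.93 (SE 0.16), the lysosomal protein Tmem9 had 1.64 (SE 0.30), and Gmpr, GMP reductase, had 0.82 (SE 0.14) with clones 9 and 8 overlapping. Ng23, 2210020M01Rik and 5033414D02Rik complete the 23, with log2 fold changes of 1.76 (SE 0.31), 0.91 (SE 0.15) and 0.72 (SE 0.13).

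As whole lists, the basophil genes had 5 of 32 tested called higher by edgeR (against 0.200% of all genes) and 0 lower (Ms4a2, Prss34, Cd200r3, Il1rl1 and Cyp11a1), with 15 of 32 higher at an unadjusted p under 0.05 (against 3.88%) and a median log2 fold change of 0.29. The mast cell genes had 3 of 11 tested (Tpsg1, Tpsb2 and Cma1) and 5 at an unadjusted p under 0.05, with a median of 0.27, against 0.00 over all genes. Of these, Tpsb2 passed the filter on low counts through the Mcpt8-high group. A further 6 of 38 and 9 of 20 listed genes were below the filter and could not be counted. Both counts moved with single clones: without clone 3 they were 0 and 1, without clone 2 both were 1, without clone 11 they were 1 and 2, without clone 10 they were 2 and 1, without clone 5 both were 2, without clone 13 they were 3 and 2, without clone 7 both were 3, without clone 4 they were 4 and 2, and without clone 8 they were 4 and 5. Gata1 and Ndst2, the enzyme that makes mast cell heparin, had 1.46 (SE 0.29) and 1.03 (SE 0.22). Neither passed by edgeR, and DESeq2 called both, as it did Slc18a2 and Itga2b of the basophil list.

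The label basophil-leaning is borne out only in part by the defining markers. Summed over 8 basophil markers other than Mcpt8, the level was 6774 to 12014 CPM in the Mcpt8-high group and 2298 to 8210 CPM in the reference, mostly Cpa3 and Hdc, which overlapped. Summed over 5 mast cell markers, it was 239 to 741 CPM against 23.5 to 145 CPM, nearly all of it Cma1. Il4, Mcpt4 and Tpsab1 were under 1 CPM in every library, Mrgprb2 had no counts in any, and Fcer1a reached 1.35 CPM. Neither defining set was complete in any of the 13 libraries, and the groups are called here by Mcpt8, not by a cell type. Summed over the megakaryocyte markers Pf4, Itga2b and Gp9, the level was 352 to 561 CPM in the Mcpt8-high group and 90.5 to 349.6 CPM in the reference. These sums parted only narrowly, at 351.5 CPM in clone 1 against 349.6 CPM in clone 10. Each of the genes overlapped on its own, and none was called by edgeR. The part of this level in the other differences was not tested.

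**Figure D4:**
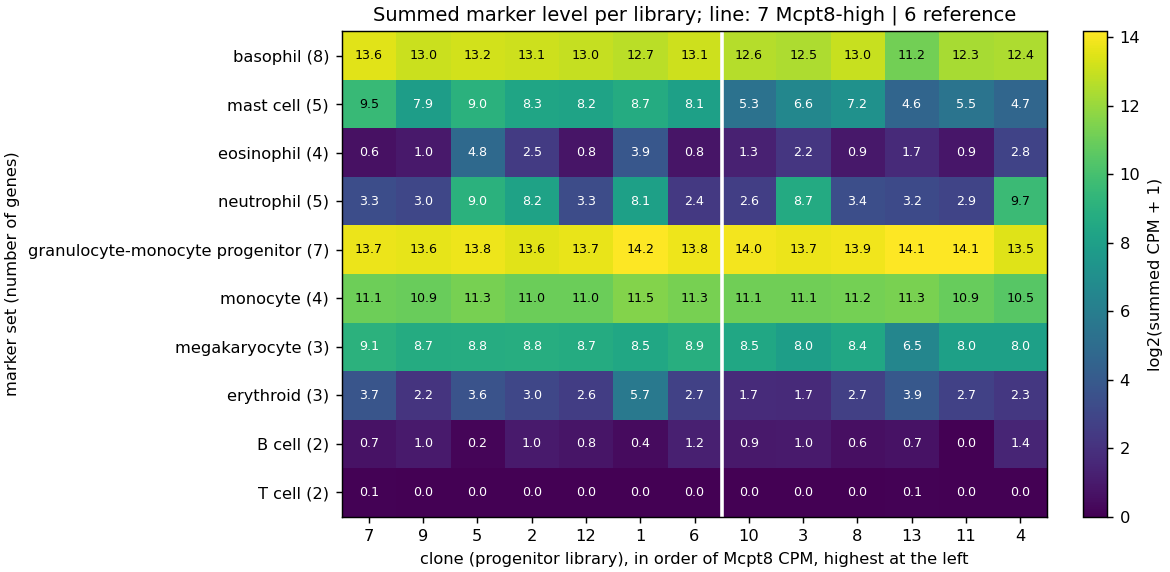
Colour and number give log2(summed CPM + 1) of each marker set (rows, with the number of genes) in each progenitor library (columns, in order of Mcpt8 CPM), and a white line parts the 7 Mcpt8-high from the 6 reference clones. The mast cell row steps down at the line, the neutrophil row is high in clones 1 to 5 on both sides of it, and the granulocyte-monocyte progenitor row is level.

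No tested marker of progenitor identity passed. Cd34 was at 2484 to 3635 CPM (median 3540.4) against 3052 to 3619 CPM (median 3399) and Mpo, the myeloperoxidase of primary granules, at 2421 to 9312 CPM (median 3800.4) against 3317 to 7438 CPM (median 5687). Log2 fold changes were 0.03 (SE 0.10) for Cd34, -0.31 (SE 0.27) for Mpo and -0.43 (SE 0.96) for Elane, the neutrophil elastase. Of 19 tested stem and progenitor genes 0 passed, and of 13 neutrophil primary granule genes 0 passed (edgeR). At an unadjusted p under 0.05, 1 of the 19 was higher and 1 lower, and 0 of the 13. Over all genes these shares were 3.88% and 1.72%. Of 10 tested neutrophil secondary and tertiary granule genes 1 was called higher by edgeR (Anxa1, against 0.200% of all genes). Anxa1 was called in 2 of the 13 fits that left out 1 clone each. Only 2 of the 10 were positive (against 50.1% of all genes), with a median of -0.29. S100a9 had -0.45 (SE 1.29), and the clones that were high in it, 1 to 5, lie in both groups.

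Megakaryocyte and erythroid genes had positive fold changes in 16 of 18 tested, with a median log2 fold change of 0.69, against 50.1% positive and a median of 0.00 over all genes. By edgeR 0 passed, with 5 higher at an unadjusted p under 0.05 (against 3.88%). The count was 2 by DESeq2 (Gp1ba and Itga2b) and 2 by edgeR without clone 8 (Gp1ba and Gp1bb). Those 5, chosen after their values were seen, are Gp1ba, Itga2b, Gp1bb, Epor and Klf1. Itga2b, the platelet integrin that early basophil and mast cell progenitors also carry, was at 201 to 334 CPM (median 299.9) against 70 to 246 CPM (median 157), with 0.84 (SE 0.21). Klf1, the erythroid factor, was at 2.24 to 32.6 CPM (median 5.52) against 1.6 to 5.44 CPM (median 2.94), and clone 1 supplied its high end.

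Eosinophil genes could hardly be read: 3 of 11 were tested and 0 passed, and Epx and Ear6 were under 1 CPM in every library. Monocyte and macrophage genes had 0 of 16 called, with F13a1 at 0.35 (SE 0.25). Lymphoid genes were negative in 11 of 11 tested, with a median of -0.47, while 50.1% of all genes were positive. By edgeR 1 was lower at an unadjusted p under 0.05 (against 1.72% of all genes), and 0 passed. Granule serine proteases and their inhibitors had 2 of 14 tested called higher by edgeR (Prss34 and Cma1, against 0.200% of all genes). That count was 0 without clone 2, 3 or 11, each left out alone. Of the remaining lists (dendritic, interferon, cell cycle, ribosome biogenesis, glycolysis, cholesterol, immediate early, adhesion) none had a call by edgeR. DESeq2 called 2 adhesion and migration genes, Ccr1 and Itga2b, and no gene of these other lists higher. All 20 cholesterol synthesis genes were positive (against 50.1% of all genes) with a median of 0.17, and 2 were higher at an unadjusted p under 0.05 in edgeR (against 3.88%).

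No gene was called lower by edgeR. The 6 with the smallest p at a mean log2 CPM of 3 or more, none of which passed, were Rtn4r, Acpl2, Ccnd1, Cyth1, Rad18 and Fkbp1a. Their log2 fold changes ran from -0.69 for Ccnd1, the cyclin of G1, to -0.23 for Rad18, a ubiquitin ligase of DNA repair, with edgeR adjusted p-values from 0.341 to 0.418.

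The Minus libraries of the same 13 clones were not used for the ranking and show whether the difference was seen in the monocytic state. In them 0 of 11953 genes passed in either direction by edgeR (0% called) and 0 by DESeq2, with 81 higher (0.678%) and 169 lower (1.41%) at an unadjusted p under 0.05, or 2.09% in all. Only 1 gene (0.00837%) had all Mcpt8-high libraries above the reference. Of the 23 genes 19 could be tested, 15 had a positive fold change (against 53.3% of all genes) and 1 was higher at an unadjusted p under 0.05, with a median of 0.33 against 0.02 over all genes.

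Prss34 was at 8.65, 31 and 131 CPM (lowest, median, highest) in the Mcpt8-high group and 3.44, 16.7 and 81.8 CPM in the reference. The groups overlapped throughout, with clone 5 highest in the one and clone 11 in the other, and the log2 fold change was 0.40 (SE 0.70). Cma1 was at 3.5 to 508 CPM (median 23.1) against 1.84 to 333 CPM (median 60.7), and Tpsb2 at 3.81 to 596 CPM (median 23.8) against 1.7 to 267 CPM (median 82.2), with 0.11 (SE 1.19) and 0.22 (SE 1.18). Tpsb2 had a higher mean CPM in the monocytic than in the progenitor libraries, 114 ± 215 against 9.81 ± 4.53 CPM in the Mcpt8-high clones, which was not tested. Alox5, the gene with an unadjusted p under 0.05, was at 83.8 to 226 CPM (median 127) against 58.9 to 113 CPM (median 82.6), with 0.74 (SE 0.23) and p = 0.00677 before adjustment in edgeR. Ets1, nearly silent in the progenitors, was at 5.86 to 109.8 CPM (median 17.4) against 5.53 to 29.4 CPM (median 13) in the monocytic cells, and clone 9 was highest.

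By smallest p, the leading higher genes at a mean log2 CPM of 3 or more were Adrbk2, Cnst, Dmtf1, Ahctf1, E2f2 and Alox5, and the leading lower ones Efcab4a, Gypc, Pf4, Ly6a, Pnp and Ccnd2. None passed. Adrbk2, a receptor kinase, had 0.73 (SE 0.20) and Efcab4a -0.63 (SE 0.15), and Ly6a, the stem cell antigen Sca-1, had -4.03 (SE 1.22).

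Interferon-stimulated genes were negative in 23 of 23 tested in the monocytic libraries, with a median of -1.82, while 53.3% of all genes were positive. By edgeR 13 were lower at an unadjusted p under 0.05 (against 1.41% of all genes), and 0 passed. In 2 reference clones Isg15 was far above the rest. Isg15, a ubiquitin-like antiviral protein, was at 474 CPM in clone 8 and 93.9 CPM in clone 13, and at 4.11 to 31.4 CPM in the other 11. Pf4, a platelet chemokine, was at 4.94 to 23.8 CPM (median 12.2) against 4.07 to 383 CPM (median 73.3), with clones 8, 11 and 13 high. In the progenitor libraries 0 of 16 tested interferon-stimulated genes passed, with a median of 0.02.

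The progenitor libraries of clones 15 to 25 took no part in the ranking. There the slope of each gene on log2 Mcpt8 CPM was fitted over 11 clones, so that a slope of 1 means a doubling for each doubling of Mcpt8. By edgeR 0 of 12584 genes passed (0% called), with 1126 positive (8.95%) and 522 negative (4.15%) at an unadjusted p under 0.05, or 13.1% in all, and DESeq2 called 267 and 62. Of the 23 genes 22 could be tested, 21 had a positive slope (against 47.4% of all genes), and 18 had an unadjusted p under 0.05, with a median slope of 1.01 against -0.01 over all genes. The exception was Ets1, with -0.17 (SE 0.53).

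This rests on 2 clones. Mcpt8 was at 1190 CPM in clone 19 and 559 CPM in clone 24, and at 77.4 to 161 CPM in the other 9. Prss34 was at 401 and 437 CPM in clones 19 and 24 and at 0.363 to 66.2 CPM in the rest. Cma1 was at 344 and 114 CPM, against 0 to 16.3 CPM. Ms4a2 was at 253 and 60.4 CPM, against 0 to 32.8 CPM, with clones 16 and 18 the next highest.

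Without clones 19 and 24 only 5 of 17 of the genes had a positive slope, with a median of -0.72, and 3 of the 5 had an unadjusted p under 0.05 (4.42% of all genes). Of the negative slopes 1 had an unadjusted p under 0.05, that of Tmem9, at -8.22. In the clones left, Mcpt8 ran only from 77.4 to 161 CPM, so these slopes rest on a narrow range. Without clone 19 alone 19 of 21 were positive and 8 had an unadjusted p under 0.05 (15.9% of all genes), with a median of 0.76. Without clone 24 alone 19 of 21 were positive and 15 had an unadjusted p under 0.05 (1.20% of all genes), with a median of 0.92. The shallowest of these libraries, clone 21, holds 0.362 M counts, and without it 21 of 22 were positive. On the rank of Mcpt8 in place of its level, with clones 19 and 24 kept, 17 of 18 were positive. Of these, 12 had an unadjusted p under 0.05 in edgeR (against 8.85% of all genes).

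Slopes were 1.69 (SE 0.33) for Prss34, 1.85 (SE 0.37) for Cma1, 1.55 (SE 0.33) for Tpsg1, 1.08 (SE 0.26) for Ms4a2 and 1.20 (SE 0.30) for Il1rl1. Csrp3 had the smallest p of all genes, with 1.42 (SE 0.19) and an edgeR adjusted p of 0.0674. Cpa3 had 0.50 (SE 0.14) with an unadjusted p of 0.00387 in edgeR, and Gata2 0.17 (SE 0.11). By smallest p at a mean log2 CPM of 3 or more, Prss34, Cma1, Lpxn, Fuca1 and Il3ra were among the leading positive slopes and Foxk1, Col4a6, Gart, Clcn3, Nin and Ebf1 led the negative ones, none of which passed. Fuca1, a lysosomal fucosidase, had 0.32 (SE 0.07), and Il3ra, which binds IL-3, had 0.52 (SE 0.11). Neutrophil secondary and tertiary granule genes had a positive slope in 1 of 20 tested (against 47.4% of all genes), with a median of -1.09. At an unadjusted p under 0.05 in edgeR, 1 was positive (against 8.95% of all genes) and 0 were negative (against 4.15%).

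**Figure D5:**
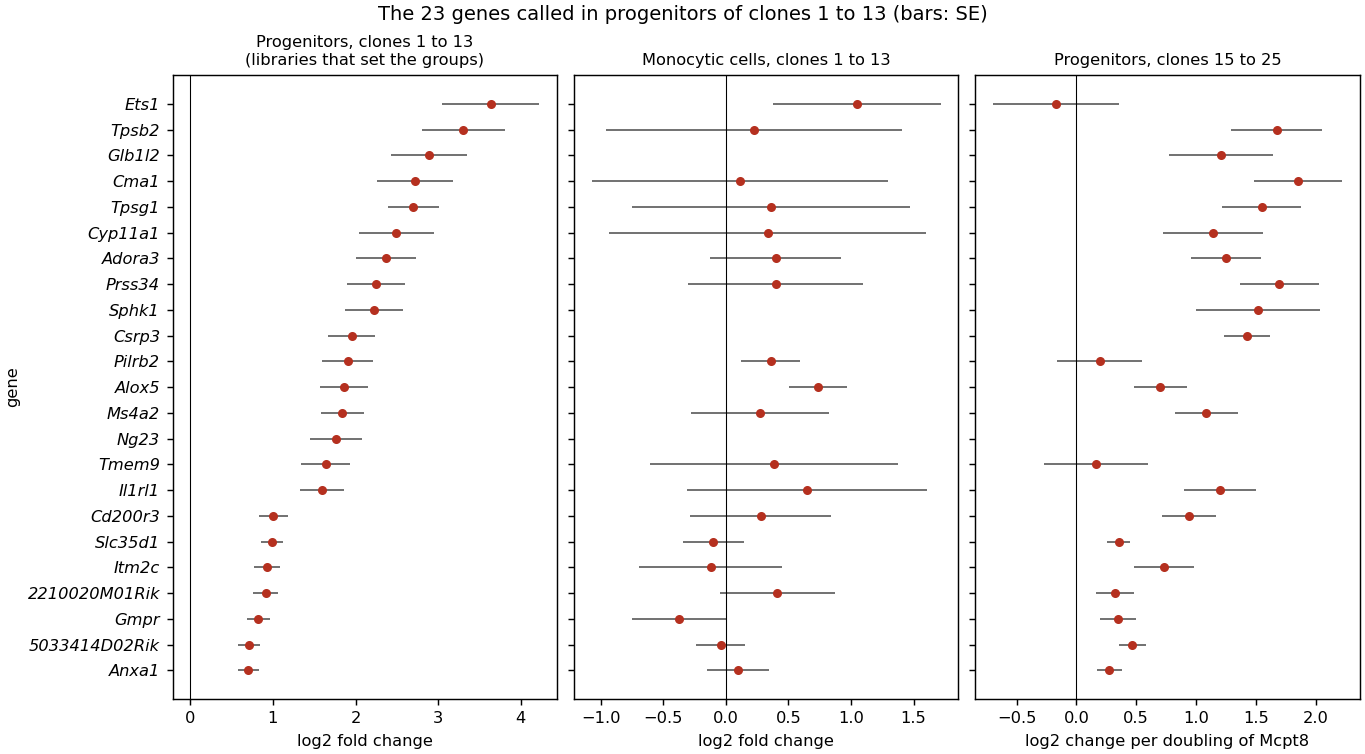
Points are log2 fold changes (left, middle) or slopes (right) of the 23 genes, with bars of SE and a blank where a gene was below the filter. All 23 are positive on the left, where Mcpt8 in the same libraries set the groups, 15 of 19 are positive in monocytic cells with wide bars for the proteases, and 21 of 22 are positive in clones 15 to 25, a pattern that was not seen without clones 19 and 24.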

How the data were processed

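Total RNA of ER-Hoxb8 clones was sequenced after RNeasy extraction and NEB library preparation, per the labels' protocols. The deposited table holds raw read counts per gene for 37620 genes. STAR 2.7.3a, HTSeq 0.6.0 and mm9 are named in the submitters' processing notes; strand setting, annotation and filters are not given in the sources used here. 1 column of no sample was not used, and no 2 libraries were identical.

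Counts were fitted with edgeR 4.0.16 (limma 3.58.1, R 4.3.3): filterByExpr with a minimum count of 10, TMM factors, quasi-likelihood F tests, two-sided, Benjamini-Hochberg adjustment over all genes tested, threshold 0.05. Mcpt8 was removed after filtering. CPM printed are count over library total; fold changes come from the fit. DESeq2 1.42.0, another scaling, other filters, a depth term and leaving out each clone were the alternatives. Figures used matplotlib 3.10.9 in Python 3.11.15.

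The members, the 22 gene lists and the naming rule were chosen with earlier results of these data known. The rule names Prss34, Cpa3, Ms4a2, Fcer1a, Hdc, Gata2, Kit, Cebpa, Irf8, Mpo, Elane and S100a9, the 12 higher genes past the threshold with the largest change among genes whose average log2 CPM was 3 or more, and up to 3 called members and the most expressed uncalled member of each list. It takes lower genes by smallest p where none pass and 6 per direction in the monocytic cells and in clones 15 to 25. Uncalled list members are mostly given by counts, and some genes the rule takes are not reported here. The other called genes, and those said to be so, were named after their values were seen. Of 480 list entries 2 had no match.

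On simulated counts for the progenitor comparison (11426 genes), 82.8% of genes changed 2-fold and 98% of those changed 4-fold were recovered, and 5.76% of calls were unchanged genes. Recovery was lower for the monocytic comparison (11814 genes), at 51% and 89%, with 10.3% of calls unchanged genes. In clones 15 to 25 (12368 genes), 53% of genes with a slope of size 0.5 and 86% of those with size 1 were recovered. There 5.44% of calls were unchanged genes. Each simulation planted 99 or 100 changed genes of each size, none of them at very low expression. The data gave fewer calls by edgeR (23, 0 and 0), and the adjusted threshold is easier to reach where more genes change. These shares are therefore not recovery rates for the comparisons above.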

Additional observations from a re-analysis of the deposited data

Results flagged for a closer look

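In 102 groups of 6 or 7 libraries (the genes always named, the called genes and the 6 leading lower genes in progenitors, and the first of these also in monocytic cells), 7 had a library set apart from the others of its group by a gap on the log2 CPM scale that chance gives in about 5% of groups. That count is close to the share given by chance, so the libraries below are given as a description. Clone 13 accounts for 3 of the 7, in the reference progenitors. Its Cpa3 was at 1877 CPM, against 4387 to 6779 CPM in the other 5, its Irf8 at 129 CPM against 20.7 to 37.5, and its Csrp3 at 2.12 CPM against 4.56 to 7.01. Without clone 13, 17 genes were called higher instead of 23.

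Among the Mcpt8-high progenitors, clone 1 had Irf8 at 90.8 CPM, against 12.9 to 24.2 in the other 6, and clone 12 had Glb1l2 at 13.6 CPM, against 38.1 to 69.0. In the monocytic libraries of that group, clone 9 had Irf8 at 17.4 CPM, against 88.4 to 183 CPM, and clone 5 had Fcer1a at 1.15 CPM, against 0 to 0.0385 CPM. Clone 5 was also the highest of these libraries in Prss34, Cma1, Tpsb2, Cpa3 and Il1rl1.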

How the results depend on the processing

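In the progenitor comparison the count of higher genes was 20 to 24 under size factors, no count filter, a minimum count of 50 or a depth term, with 0 lower. DESeq2 gave 99 higher and 3 lower, and Mcpt8 as a continuous term 35 and 2. Without ranks 7 and 8 it was 1 higher, with clones 1 to 5 against 6 to 13 as a term 1 lower, and within either set 0 higher, where fewer samples entered. Leaving out each clone gave 1 to 44 higher and 0 to 1 lower. Tpsg1 stayed past the threshold without each of the 13 clones. The monocytic counts were 0 under every alternative run. In clones 15 to 25, DESeq2 called 267 and 62, no count filter 5 and 1, and leaving out each clone 0 to 1127 positive (clone 19) and 0 to 693 negative; without clone 16 it was 4 and 2. The causes were not tested. No paired analysis was possible because the groups compared are different clones with no number in common. Alternatives that split clones 1 to 5 from 6 to 13, or leave out clones 19 and 24, were chosen after seeing the data.

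Log2 fold changes that turned sign in progenitors were Kit -0.0302, Fcer1g 0.0190 with Mcpt8 continuous, Kit -0.0652 without ranks 7 and 8, Cebpa -0.0309, S100a9 0.11, Fcer1g 0.0551 in clones 6 to 13 and Kit -0.14, Irf8 0.84, Mpo 0.62, Cd34 -0.0800 in clones 1 to 5. Over clones left out, the ranges that cross 0 were Cd34 -0.00863 to 0.10, Elane -1.43 to 0.42, Irf8 -1.28 to 0.0571, Kit -0.0409 to 0.21, S100a9 -1.16 to 0.86. In monocytic cells the turned values were Cpa3 -0.00467 with size factors, Cpa3 -0.00479 with DESeq2, Cpa3 -0.00829 unfiltered, Cpa3 -0.0173 at a minimum of 50, Cpa3 -0.13 continuous, Cpa3 -0.11 without ranks 7 and 8 and S100a9 -0.29 with the depth term, and ranges crossed 0 for Cpa3 -0.97 to 0.94, Elane -0.84 to 0.0285, Gata2 -0.82 to 1.03, Hdc -0.0293 to 0.46, Kit -0.10 to 0.29, Ms4a2 -0.33 to 0.85, Prss34 -0.28 to 0.93, S100a9 -0.0657 to 0.42. Slopes in clones 15 to 25 turned for Mpo -0.00540 unfiltered, Mpo -0.0189 with the depth term, for Elane 0.20, Tmem9 -0.0359 on the rank of Mcpt8, and, without clones 19 and 24, for Ms4a2 -2.50, Gata2 -0.10, Kit -0.38, Cebpa 0.0273, Elane 2.06, S100a9 1.81, Gmpr -0.26, Cma1 -3.77, Alox5 -1.12, Il1rl1 -1.83, Tmem9 -8.22, Cyp11a1 -3.31, Tpsb2 -2.88, Cd200r3 -0.50, Glb1l2 -0.72, 2210020M01Rik -0.31, Pilrb2 -0.88, Nin 0.0305. Left-out ranges crossed 0 for Cebpa -0.11 to 0.0509, Elane -0.31 to 0.36, Gata2 -0.0948 to 0.28, Kit -0.0548 to 0.0920, Mpo -0.0131 to 0.13, Pilrb2 -0.00320 to 0.47, Tmem9 -0.25 to 0.39. None of the 23 called genes turned sign in the progenitor comparison under any alternative run. For the 21 whose groups do not overlap, leaving out clones could not turn the sign. That holds for any gene whose groups do not overlap, so it is a description and lends no support. Genes under about 1 CPM, such as Fcer1a, are limited by depth.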

Other observations

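In the sorted primary monocytes (2 libraries each) Prss34 was at 2364 and 5377 CPM in the intermediate and 1096 and 3772 CPM in the nonclassical subset, above every progenitor library of clones 1 to 13, and at 10.6 and 4.02 CPM in the classical subset. Cma1 was at most 5.21 CPM in any of the 14 primary libraries, and Tpsg1 and Tpsb2 had no counts there. Ms4a2 was at 32.6 and 86.7 CPM and Fcer1a at 50.6 and 149.6 CPM in the intermediate libraries, and Ms4a2 was at 10.6 and 75.4 CPM and Fcer1a at 20.9 and 105 CPM in the nonclassical ones. Fcer1a in the Mcpt8-high progenitors reached 1.35 CPM. No test was made of these values.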
